A study of Mus musculus with 4 samples.

Results

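RNA levels in the mouse embryonic stem cell clones of founder line 6 were compared with those in the clones of founder line 4, over both genotypes of a Gcn5 deletion. The comparison used all 4 libraries of the study, 2 per line, and 11932 of the 23259 genes that could be joined across them, those with a mean of at least 1 FPKM (fragments counted per length of transcript and per size of library). A clone's line was taken from its name. Line 4 was represented by the WT clone 4-1 and the KO clone 4C2, and line 6 by the WT clone 6-1 and the KO clone 6C4. All 4 clones descended from Gcn5 flox/flox stem cell lines that had been derived from blastocysts, and all came from cultures transiently transfected with a vector for an EGFP-Cre fusion under the EF1α promoter. At 72 hours the cells were sorted, and single colonies were picked from GFP-negative cells (WT, flox/flox, Gcn5 intact) or GFP-positive cells (KO, exons 3 to 18 of Gcn5 removed). The labels give the new lines a normal male karyotype, and describe their culture as 15% serum plus LIF (1000 U/mL) over a feeder layer of Mitomycin-C treated fibroblasts. Each line thus contributes 1 founder, and each of its 2 clones is a single library. No clone of the same line and genotype was replicated. The p-values rest on how far the line difference in the WT clones departs from that in the KO clones, with spread borrowed from other genes. They do not measure the spread between founder lines in general. The mouse strain, the passage number, the sequencing run of each library and whether feeder cells were removed before lysis are not given in the sources used here. Line 4 is replicate 1 and line 6 is replicate 2 in the labels. A difference between the lines therefore cannot be told apart from one in culture, RNA preparation or sequencing, if these were done by replicate.

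Embryonic stem cells in serum and LIF are a mixed population that moves between a naive state, which resembles the inner cell mass and relies on LIF, Stat3 and factors such as Klf4 and Esrrb, and states closer to the later epiblast. On leaving the naive state, the cells raise the de novo DNA methyltransferases and factors such as Pou3f1, Sox3 and Lef1, under FGF and ERK signalling. Separately derived lines of one genotype can differ in this balance, in clonal or epigenetic changes at single loci, and in their metabolism.

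Values below are given in the order WT and KO of line 4, then WT and KO of line 6. They are spike-in normalized FPKM as deposited. Either of a pair of ERCC spike-in mixes was added to the RNA, and the labels do not say which library received which. Summed over all genes these came to 757931, 520491, 680168 and 538257 FPKM, and between 11562 and 12174 genes reached 1 FPKM in a library. The depth behind the values is unknown. The test used log2(FPKM + 1) after the median of each library had been set to the same level, with genotype as a second term in limma, and a difference is line 6 minus line 4 on that log2 scale, as the mean of the WT pair and the KO pair. A gene was called at a Benjamini-Hochberg adjusted p under 0.05. All adjusted p-values are from limma. Kat2a, the gene for Gcn5, stood at 38.7, 11.5, 34.4 and 11.5 FPKM, lower in both KO clones, and did not differ detectably between the lines, at -0.04 (SE 0.08, adjusted p = 0.739). The stem cell markers Pou5f1 (715, 454, 782 and 640.0 FPKM) and Zfp42 (41.8, 27.3, 34.5 and 29.1 FPKM) were high in all 4 libraries. The WT library of line 6 held a group of genes at up to 4956 FPKM that were far lower in the other 3 libraries, described further on.

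The lines differed at many genes and mostly by less than 2-fold. Of the 11932 genes tested, 1915 (16.0%) were called higher in line 6 and 1616 (13.5%) lower. All 3531 had the same sign in the WT pair and in the KO pair, which the test fixes in advance. Its only residual is the distance between the pairs, so a gene with opposite signs could not be called. The median size of the difference over the called genes was 0.48. At least 2-fold differences in the same direction in both pairs were seen at 66 genes (0.553%) higher in line 6 and 66 genes (0.553%) lower, and no gene was 2-fold apart in opposite directions. On the deposited scale, without setting the medians equal, 438 genes were called higher and 651 lower, so that the higher calls made up 40.2% of all calls and not 54.2%. With a library left out, the calls of higher fell to 1143 without the WT clone of line 4 and to 1212 without that of line 6, and the calls of lower fell to 947 without the KO clone of line 6. The WT pair and the KO pair share no library, and their differences across genes had a Pearson correlation of 0.695 and a Spearman correlation of 0.768, as a description over genes, which are not independent replicates. After the medians had been set equal, the difference between the lines was wider than that between the genotypes. The standard deviation over genes was 0.379 against 0.180, and 220 against 24 genes were at least 2-fold apart. Setting the medians equal takes out any general shift between the genotypes. Before it, the median log2 values were 3.65, 3.19, 3.45 and 3.31, lower in the KO clone of each line. The widths therefore do not compare the whole effect of genotype with that of line.

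**Figure D1:**
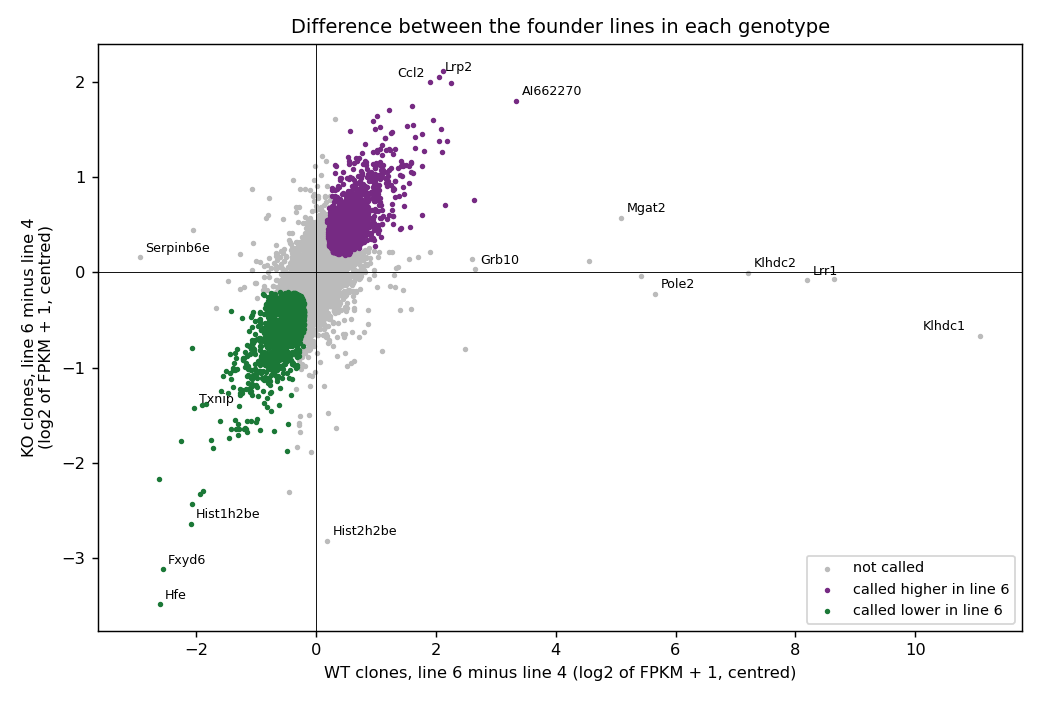
Line 6 minus line 4 in the WT clones (horizontal axis) and in the KO clones (vertical axis), log2 of FPKM + 1 after centring, 1 point per tested gene. Called genes lie along the diagonal, where both genotypes have the same sign, as the test requires. Hfe, Fxyd6 and histone genes lie at the lower left and AI662270, Lrp2 and Ccl2 at the upper right. Klhdc1, Klhdc2, Lrr1 and other genes raised in 1 library lie along the horizontal axis.

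Among the genes higher in line 6, the widest differences were in genes of several functions. AI662270, an expressed sequence without a named product, was at 0.41, 0.746, 11.4 and 5.63 FPKM, a difference of 2.57 (SE 0.34, adjusted p = 0.00853). Lrp2, the endocytic receptor megalin, was at 2.68, 1.8, 12.4 and 11.7 FPKM, and its difference of 2.06 (SE 0.09, adjusted p = 0.00267) was the same in both pairs to 2 decimals (2.06 and 2.06). Its partner receptor Cubn, cubilin, was at 1.09, 0.321, 4.59 and 3.2 FPKM. Both clones of line 6 were above both clones of line 4 for all 3 genes. Here and below, such separation of the lines is a description only. With 2 libraries per line it arises readily, and the share of all tested genes that show it was not counted. The chemokine gene Ccl2 stood at 2.51, 2.07, 10.4 and 12.3 FPKM, a difference of 1.95 (SE 0.09, adjusted p = 0.00267). Mat2a, which makes the methyl donor S-adenosylmethionine, was at 37.1, 28.6, 93.5 and 92.4 FPKM, a difference of 1.53 (SE 0.07, adjusted p = 0.00267), and among these genes it was the most abundant. The fatty acid importer and activator Slc27a2 was at 6.13, 4.41, 23.1 and 16.8 FPKM, the protease inhibitor Spink3 at 1.36, 2.7, 7.76 and 10.4 FPKM, and carbonic anhydrase Car2 at 11.6, 16.1, 33.4 and 44.8 FPKM. In Spink3 and Car2 the KO clone had the higher value within each line. The remaining ones among the 15 with the widest differences were Has2as (1.78), Vrtn (1.72), Enpp2 (1.69), Spna1 (1.67), Serpinb2 (1.61), Myc and Sall2.

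Among the genes lower in line 6, Hfe led. This regulator of iron uptake, which encodes a class I-like protein that binds the transferrin receptor, was at 579.5, 415, 82 and 39.2 FPKM, a difference of -3.05 (SE 0.20, adjusted p = 0.00422). Fxyd6, a small regulator of the sodium pump, was at 56.9, 36.8, 7.55 and 3.72 FPKM, a difference of -2.84 (SE 0.14, adjusted p = 0.00267). Neither gene had overlapping values in the 2 lines. Txnip, an inhibitor of thioredoxin and of glucose uptake, was at 210.4, 109, 43.7 and 43.5 FPKM, a difference of -1.73 (SE 0.15, adjusted p = 0.0047). Ndufa4l2, a mitochondrial protein known as a hypoxia target, was at 38.2, 25.1, 9.43 and 6.88 FPKM, Got1l1 at 15.9, 11.6, 3.36 and 3.01 FPKM and Ly6g6e at 7.33, 4.56, 1.72 and 0.923 FPKM. The other genes among the 15 widest were Ndrg1 and Bnip3, 2 hypoxia-responsive genes, and 7 histone genes of the Hist1 cluster.

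Genes of the formative and primed epiblast were higher in line 6. In this list 15 of 21 tested members were called higher in line 6 and 0 lower, with a median of 0.82, against 16.0% higher, 13.5% lower and a median of 0.03 over all tested genes. The same shares are the background for every list below, and a list near them is not set apart by its count. Sall2, a zinc finger factor, was at 0.644, 0.612, 3.98 and 3.24 FPKM, a difference of 1.54 (SE 0.16, adjusted p = 0.00618). Lef1, a transcription factor of the Wnt pathway, was at 6.47, 3.82, 12.9 and 12.2 FPKM, a difference of 1.22 (SE 0.10, adjusted p = 0.00462). Pou3f1, or Oct6, a POU factor of the epiblast, was at 2.55, 2.37, 6.68 and 6.12 FPKM, a difference of 1.14 (SE 0.12, adjusted p = 0.00639). In each of these both clones of line 6 lay above both clones of line 4. The de novo DNA methyltransferases moved together: Dnmt3a was at 18.5, 14.3, 37.6 and 33.6 FPKM and Dnmt3b at 84.3, 86.8, 204 and 154 FPKM, with differences of 1.12 (SE 0.08, adjusted p = 0.00462) and 1.08 (SE 0.18, adjusted p = 0.0123). Their catalytically inactive partner Dnmt3l was at 247, 157, 242 and 236 FPKM and was not called, at 0.32 (SE 0.09, adjusted p = 0.0545). The activin antagonist Fst (1.26), the zinc finger factor Zic2 (1.18), the Sox factors Sox3 (1.15), Sox11 (0.94) and Sox4 (0.82), the forkhead factor Foxd3 (1.07), and Car4, Pim2, Fgf15 and Grhl2 (between 0.70 and 0.78) were called as well. Otx2, a homeobox factor that drives the exit from the naive state, was at 4.84, 5.89, 6.73 and 5.83 FPKM and was not called (0.24, SE 0.18, adjusted p = 0.348), and Fgf5, the usual marker of the primed epiblast, had a mean under the 1 FPKM filter, at 0.42, 0.552, 1.53 and 1.13 FPKM, and was not tested.

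Naive pluripotency genes were divided. In that list 4 of 23 tested members were called higher in line 6 and 7 lower, with a median of -0.12. Tcl1, a coactivator of Akt kinases, was at 54.4, 30.0, 17.2 and 14.5 FPKM, a difference of -1.27 (SE 0.10, adjusted p = 0.00462). Dppa3, or Stella, which guards DNA methylation in the zygote, was at 124, 121, 86.4 and 65.6 FPKM, a difference of -0.66 (SE 0.16, adjusted p = 0.0332). The nuclear receptor Esrrb was at 94.1, 57.4, 60.1 and 49.8 FPKM, a difference of -0.38 (SE 0.07, adjusted p = 0.0195), and the Krüppel-like factor Klf4 at 93.9, 50.7, 53.7 and 41.7 FPKM, a difference of -0.49 (SE 0.08, adjusted p = 0.0127). For both factors the deposited values of the lines overlapped. Prdm14, a repressor of the de novo methyltransferases, was at 6.02, 4.09, 3.64 and 3.03 FPKM, a difference of -0.43 (SE 0.10, adjusted p = 0.0271). Fbxo15 (-0.71) and Spp1 (-0.47) were the other members called lower. The homeobox gene Gbx2 went the other way, at 3.9, 2.08, 7.63 and 9.41 FPKM and 1.33 (SE 0.16, adjusted p = 0.0073), with smaller calls for Bmp4 (0.50), Nodal (0.37) and Nr0b1 (0.27). Tfcp2l1, a Stat3 target of the naive state, was at 55.4, 24.7, 26.2 and 23.5 FPKM, a difference of -0.52 (SE 0.16, adjusted p = 0.0579) that was not called, and Tbx3 was at 8.98, 4.64, 6.38 and 6.41 FPKM, with opposite signs in the pairs. Here and below, counts of calls that moved by over 1.5 times on the deposited scale, or in a fit without 1 of the libraries, are given with the library left out. In the naive list, higher calls came to 1 on the deposited scale, 2 without line 4 KO and 1 without line 6 WT or line 6 KO, and lower calls came to 4 on the deposited scale and 3 without line 4 WT or line 6 KO. Zfp42, or Rex1, differed by -0.05 and Klf2 by -0.23, neither called.

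Of the core pluripotency list, 13 of 22 tested members were called higher in line 6 and 3 lower, with a median of 0.35. Pou5f1, or Oct4, differed by 0.35 (SE 0.08, adjusted p = 0.0243). Nanog and Sox2 went the other way: Nanog was at 160.3, 108, 103 and 83.4 FPKM with a difference of -0.46 (SE 0.07, adjusted p = 0.011), and Sox2 was at 161, 112, 119 and 99.8 FPKM with a difference of -0.26 (SE 0.07, adjusted p = 0.0453). The values of the 2 lines overlapped for Sox2 and Pou5f1 as deposited and separated only relative to each library's median gene. The growth factor gene Fgf4, a target of Oct4 and Sox2, was at 83.4, 54.2, 50.1 and 40.2 FPKM, -0.53 (SE 0.07, adjusted p = 0.00853). Dppa2 (0.95), a chromatin factor of early embryos, Trim71 (0.63) and L1td1 (0.53), both RNA binding proteins, Lin28a (0.52) and Sall4 (0.35) were called higher in line 6. In the core list, higher calls came to 3 on the deposited scale and 8 without line 4 WT, and lower calls came to 1 on the deposited scale and 1 without line 4 WT.

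**Figure D2:**
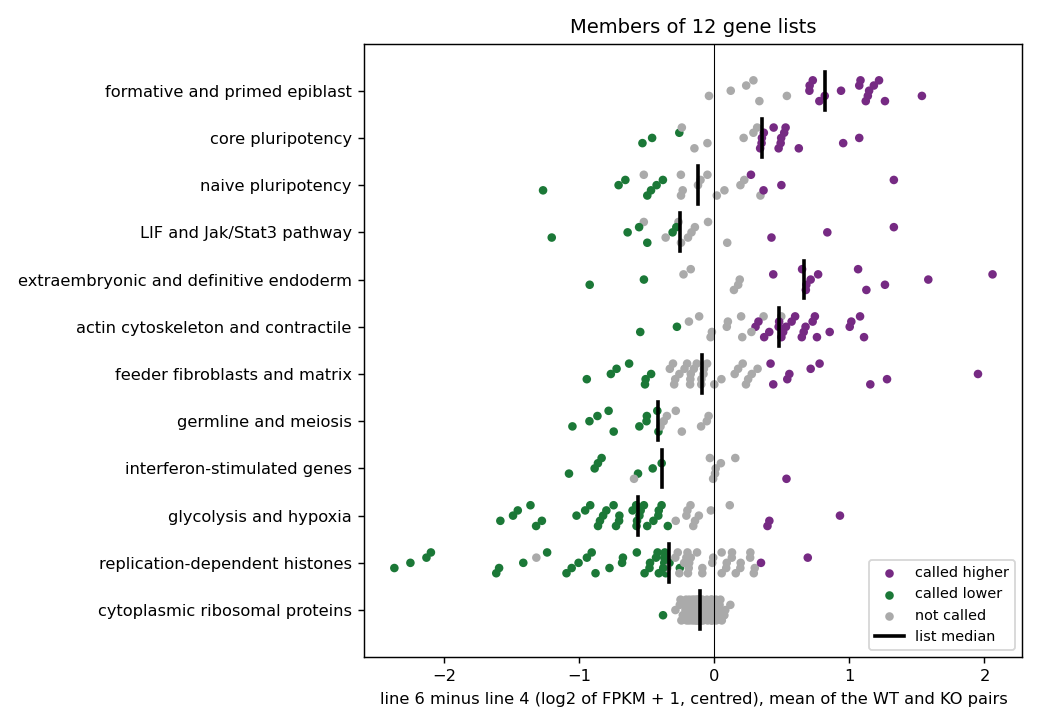
Line 6 minus line 4 for the tested members of 12 gene lists, mean of both genotype pairs, log2 of FPKM + 1 after centring, 1 point per gene with the list median as a bar. The formative and primed list lies mostly right of 0 with a median of 0.82, the glycolysis and hypoxia list left of it with a median of -0.56, and the ribosomal protein list sits in a narrow band around -0.11.

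Some targets of signalling were called as well. In the FGF and ERK list 9 of 19 tested members were called higher in line 6 and 2 lower, with a median of 0.38. Myc, the transcription factor that ERK and LIF signals raise, was at 2.63, 2.08, 8.91 and 7.96 FPKM, a difference of 1.54 (SE 0.10, adjusted p = 0.00462). Etv1, an ETS factor and ERK target, was at 2.64, 1.88, 6.73 and 6.4 FPKM, a difference of 1.27 (SE 0.10, adjusted p = 0.00462). The feedback inhibitors Spry2 (0.90, SE 0.09, adjusted p = 0.00618), Dusp6 (0.66, SE 0.09, adjusted p = 0.00813), Dusp5 (0.65), Dusp4 (0.47), Spred1 (0.54) and Spred2 (0.52) were called higher in line 6, whereas the ERK targets Etv4, Etv5, Spry4 and Egr1 were not called and the immediate early gene Fos was called lower (-0.56). Of the Myc relatives, Mycl1 was higher in line 6 (0.62, SE 0.14, adjusted p = 0.0263) and Mycn, the most abundant of the 3 at 59.7, 41.5, 44.4 and 33.7 FPKM, was lower (-0.31, SE 0.08, adjusted p = 0.0397). In the FGF and ERK list, higher calls came to 4 on the deposited scale, and lower calls came to 1 without line 4 KO or line 6 KO.

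The LIF and Jak/Stat3 list was lower in part. In it, 3 of 18 tested members were called higher in line 6 and 6 lower, with a median of -0.25. Socs3, the feedback inhibitor that Stat3 induces, was at 44.2, 27.9, 14.1 and 14.4 FPKM, a difference of -1.2 (SE 0.11, adjusted p = 0.00472). Pim3, a kinase gene downstream of Stat3, was at 79.1, 48.7, 41.5 and 35.4 FPKM, a difference of -0.64 (SE 0.08, adjusted p = 0.0073), and Bcl3 (-0.56), Klf4, Pim1 (-0.31) and Ccnd3 (-0.28) were also called lower. In the LIF list, lower calls came to 2 on the deposited scale and 3 without line 4 WT. The other Socs gene of the list, Socs2, was higher, by 0.84 (SE 0.07, adjusted p = 0.00472). The receptor genes Lifr (-0.05) and Il6st (-0.14) and Stat3 itself (-0.25) were not called.

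Of the BMP list, 4 of 18 tested members were called higher in line 6 and 2 lower. Of the Id genes, inhibitors of helix-loop-helix factors and the main BMP targets of stem cells, Id4 was not called (0.13, SE 0.11, adjusted p = 0.433) and the other three were higher in line 6. Id1 was at 4.87, 3.35, 5.76 and 8.41 FPKM, a difference of 0.70 (SE 0.15, adjusted p = 0.0255), Id2 differed by 0.68 (SE 0.11, adjusted p = 0.0126) and Id3 by 0.49 (SE 0.10, adjusted p = 0.0187). The ligand Bmp7, at 4.48, 2.72, 1.38 and 0.89 FPKM, was lower (-1.05, SE 0.11, adjusted p = 0.00653), and so was the inhibitory Smad6 (-0.44). In the BMP list, higher calls came to 2 on the deposited scale and 1 without line 4 WT or line 6 KO, and lower calls came to 1 on the deposited scale and 1 without line 4 KO, line 6 WT or line 6 KO. Of the Nodal list, 6 of 18 tested members were called higher in line 6 and 1 lower. Inhba, a subunit of activin, was at 2.42, 1.56, 4.24 and 6.09 FPKM (1.08, SE 0.15, adjusted p = 0.00944), and Lefty2, a Nodal inhibitor and target, at 42, 33.4, 69.5 and 48.9 FPKM (0.67, SE 0.13, adjusted p = 0.0184). The receptor Acvr1b was lower (-0.50, SE 0.08, adjusted p = 0.0126). In the Nodal list, lower calls came to 0 on the deposited scale and 2 without line 4 KO. Of the Wnt list, 3 of 18 tested members were called higher in line 6 and 1 lower, against 16.0% higher and 13.5% lower over all tested genes. The Wnt deacylase Notum was at 2.64, 2.44, 7.34 and 6.58 FPKM (1.21, SE 0.12, adjusted p = 0.00615) and cyclin D1, Ccnd1, at 30.4, 21.4, 51.5 and 46.2 FPKM (0.95, SE 0.07, adjusted p = 0.00462), while the ligand Wnt7b was at 6.08, 6.62, 3.01 and 2.15 FPKM (-1.01, SE 0.19, adjusted p = 0.0179). Axin2, a direct target of the pathway, was not called (0.15). In the Wnt list, higher calls came to 5 without line 4 KO, and lower calls came to 3 without line 4 KO.

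Several lineage lists also moved. In the extraembryonic and definitive endoderm list 11 of 18 tested members were called higher in line 6 and 2 lower, with a median of 0.66. Beside Lrp2 and Cubn, the endocytic adaptor Dab2 was at 1.37, 0.489, 3.5 and 2.53 FPKM (1.13, SE 0.12, adjusted p = 0.00618), the basement membrane chain Lama1 at 9.18, 5.47, 16.8 and 14.3 FPKM (1.06, SE 0.08, adjusted p = 0.00462), and the endoderm factor Gata4 at 1.07, 0.426, 2.32 and 1.16 FPKM (0.68, SE 0.15, adjusted p = 0.0277). Col4a1 (0.77), Col4a2 (0.68) and Pdgfra (0.71) were called higher and the keratin Krt19, at 9.5, 6.69, 3.46 and 3.77 FPKM, lower (-0.92, SE 0.10, adjusted p = 0.00664). In the endoderm list, lower calls came to 1 on the deposited scale and 1 without line 4 WT or line 6 WT. The defining endoderm factors Gata6 (0.901, 0.341, 1.39 and 1.36 FPKM) and Sox17 (0.22, 0.124, 0.432 and 0.392 FPKM) had means under the 1 FPKM filter and were not tested, with both clones of line 6 above both of line 4. Summed over the 28 members in the files, the list came to 1165, 769.7, 967 and 852 FPKM, ranges that overlap between the lines. In bulk RNA fewer cells of a type and less RNA per cell cannot be told apart.

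Trophectoderm genes had no common direction. In that list 3 of 13 tested members were called higher in line 6 and 4 lower: the AP-2 factor Tfap2c was at 35.5, 27.6, 16.3 and 13.2 FPKM (-1.0, SE 0.09, adjusted p = 0.00516), and the keratins split, with Krt8 higher (0.66, SE 0.08, adjusted p = 0.00757) and Krt7 lower (-0.50, SE 0.11, adjusted p = 0.028). Cdx2 was at 0.0961, 0.146, 0.382 and 0.631 FPKM, under the filter and not tested. In the ectoderm and neural list 4 of 11 tested members were called higher in line 6 and 0 lower, Gbx2 as given above and N-cadherin, Cdh2, at 1.13, 1.2, 2.67 and 3.62 FPKM (0.97, SE 0.11, adjusted p = 0.00693), among them. In the trophectoderm list, higher calls came to 1 on the deposited scale, 0 without line 4 WT and 1 without line 6 WT or line 6 KO, and lower calls came to 2 without line 6 WT. In the neural list, higher calls came to 2 on the deposited scale and 1 without line 4 WT. Of the primitive streak and mesoderm list, Eomes was the only tested member of 18, at 2.0, 1.58, 1.73 and 1.34 FPKM, and was not called (-0.10, SE 0.14, adjusted p = 0.603).

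In the germline and meiosis list 0 of 18 tested members were called higher in line 6 and 10 lower, with a median of -0.42. All 18 differences were below 0, against 46.5% of all tested genes, though for Dmrt1, a factor of germ cells, the KO pair was at 0.0029 and the difference was not called (-0.40, SE 0.19, adjusted p = 0.16). Smc1b, the meiotic cohesin, was at 5.52, 3.55, 1.85 and 1.29 FPKM (-1.05, SE 0.11, adjusted p = 0.00615), and Mov10l1, a helicase of the piRNA pathway, at 4.14, 2.24, 1.38 and 0.843 FPKM (-0.92, SE 0.11, adjusted p = 0.00756). Hormad1 (-0.86) and Sycp3 (-0.78), proteins of the meiotic chromosome axis, and Piwil2 (-0.74), a piRNA-binding Argonaute, were called too, with Ddx4 (-0.50), Dazl (-0.41), Tex19.1 (-0.42), Kit (-0.55) and Rhox9 (-0.50). In the germline list, lower calls came to 5 on the deposited scale. In the 2-cell-like list, which holds genes of the embryo at genome activation, all 4 tested members of 20 were called higher. Besides the Zscan4 genes below, these were Gm4340 (1.04) and Eif1a (0.26), whose deposited values overlapped between the lines. The 13 other members in the files were not tested, Dux among them, at 0.196, 0.139, 0.0893 and 0.0731 FPKM. The filter takes the mean over all libraries, so a low gene can enter through the line where it is high. Zscan4c entered in this way, with means of 0.62 FPKM in line 4 and 1.57 FPKM in line 6. The count of this list is therefore partly set by the filter. Zscan4c was at 0.637, 0.603, 1.51 and 1.62 FPKM (0.70, SE 0.14, adjusted p = 0.0195) and Zscan4a at 1.85, 1.8, 4.2 and 4.99 FPKM (1.02, SE 0.10, adjusted p = 0.00615); the Zscan4 copies are near identical and their values are uncertain. In the 2-cell-like list, higher calls came to 2 without line 4 WT, line 6 WT or line 6 KO.

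Genes of the actin cytoskeleton were higher in line 6. In that list 22 of 35 tested members were called higher in line 6 and 2 lower, with a median of 0.48. Myl9, a myosin light chain, was at 10.2, 8.81, 20.9 and 20.2 FPKM (1.08, SE 0.09, adjusted p = 0.00462), the focal adhesion protein Zyx at 4.38, 3.63, 8.37 and 9.26 FPKM (1.01, SE 0.09, adjusted p = 0.0047), and Anxa1 at 19.6, 15.3, 33.8 and 41.4 FPKM (1.11, SE 0.10, adjusted p = 0.00474). The actin binders Tagln (0.76) and Cnn1 (0.75), the actins Acta1 (1.0) and Acta2 (0.68), and Flna (0.53), Vcl (0.50) and Tpm1 (0.51) were called. In the actin list, higher calls came to 11 on the deposited scale and 13 without line 4 WT, and lower calls came to 1 on the deposited scale, 0 without line 4 WT and 1 without line 4 KO, line 6 WT or line 6 KO. The most abundant actins, Actb (0.21) and Actg1 (0.37), were not called.

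Many of these genes are abundant in fibroblasts, and the clones were grown on feeder fibroblasts. In the list of feeder fibroblast and matrix genes 9 of 42 tested members were called higher in line 6 and 7 lower, with a median of -0.23 in the WT pair and 0.18 in the KO pair. Summed over 46 members, the list came to 847, 585, 692 and 804 FPKM: line 6 was below line 4 in the WT clones and above it in the KO clones. None of the defining markers Col1a1, Col1a2, Col3a1 and Postn was at 0. Col3a1 was at 21.9, 16.5, 8.18 and 10.1 FPKM (-0.94, SE 0.11, adjusted p = 0.00679) and Col6a1 at 15.3, 11.5, 6.51 and 7.88 FPKM (-0.76, SE 0.10, adjusted p = 0.00888), both lower in line 6, as were Postn (-0.72), Dcn (-0.63) and Col1a2 (-0.47). Ccl2, S100a4 at 47.1, 33.7, 91.7 and 98.9 FPKM (1.28, SE 0.09, adjusted p = 0.00462), Cd44 at 1.52, 1.24, 3.47 and 4.92 FPKM (1.16, SE 0.12, adjusted p = 0.00618) and Tnc (0.78) were higher. In the feeder list, higher calls came to 5 on the deposited scale and 5 without line 4 WT or line 4 KO, and lower calls came to 4 on the deposited scale, 4 without line 6 WT and 13 without line 6 KO. Without line 6 WT, 13 members were called higher. The part of feeder cells in the actin and matrix values was not tested.

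In the list of epithelial adhesion and junctions 5 of 28 tested members were called higher in line 6 and 6 lower. The tight junction genes Tjp3, at 25.6, 21.2, 9.43 and 6.52 FPKM (-1.41, SE 0.14, adjusted p = 0.00586), and Cldn4, at 109, 82.6, 44.9 and 39.3 FPKM (-1.12, SE 0.07, adjusted p = 0.00423), were lower in line 6, with Cdh3 (-0.73), Crb3 (-0.67) and Pkp2 (-0.56). In the junction list, higher calls came to 2 on the deposited scale, 1 without line 4 WT and 3 without line 6 WT or line 6 KO, and lower calls came to 10 without line 4 WT. E-cadherin, Cdh1, was not called (-0.04), and N-cadherin was higher as given above.

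Among the lists with at least 10 tested members, that of glycolysis and hypoxia genes had the largest share of calls: 30 of 42 tested members were called lower in line 6 and 3 higher, with a median of -0.56 (WT pair -0.58, KO pair -0.55). Many of these genes are direct targets of the hypoxia-inducible factors, Hif1a with its partner Arnt, which bind the core sequence ACGTG and, in other targets, the variant GCGTG. The promoters of 3 members called lower are shown because the genes of the list moved together. They are examples that hold matches, and other members called lower held fewer or none. Each is the window from 250 bases before to 50 bases after a start site in RefSeq on GRCm38.p6, 5′ to 3′ on the gene's strand, and capitals mark either core or its reverse complement, on both strands, which can overlap the E-box CACGTG. The windows are chr7:138909457-138909756, reverse strand, for Bnip3, chr11:78322823-78323122, forward strand, for Aldoc, and chrX:106186850-106187149, forward strand, for Pgk1.
Bnip3: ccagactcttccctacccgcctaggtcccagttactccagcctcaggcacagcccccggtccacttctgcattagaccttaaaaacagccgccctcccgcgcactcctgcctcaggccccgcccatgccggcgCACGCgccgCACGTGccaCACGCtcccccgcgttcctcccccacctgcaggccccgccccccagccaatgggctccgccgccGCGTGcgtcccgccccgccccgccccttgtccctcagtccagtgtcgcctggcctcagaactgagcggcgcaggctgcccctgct
Aldoc: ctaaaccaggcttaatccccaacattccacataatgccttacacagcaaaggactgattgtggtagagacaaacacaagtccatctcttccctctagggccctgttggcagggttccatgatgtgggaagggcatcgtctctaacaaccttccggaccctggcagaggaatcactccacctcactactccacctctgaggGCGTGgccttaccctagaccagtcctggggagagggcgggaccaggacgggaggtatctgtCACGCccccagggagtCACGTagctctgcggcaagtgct
Pgk1: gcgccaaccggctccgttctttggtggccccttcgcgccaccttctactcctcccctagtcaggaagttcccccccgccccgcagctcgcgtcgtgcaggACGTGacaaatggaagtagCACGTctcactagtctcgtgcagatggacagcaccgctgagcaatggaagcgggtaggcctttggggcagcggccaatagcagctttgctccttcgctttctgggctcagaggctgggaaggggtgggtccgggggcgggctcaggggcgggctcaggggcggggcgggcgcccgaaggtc

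A match to one of these letters is common: of all 32851 windows of this length, 43.8% held at least 1, and of the 11640 windows of tested genes, 63.4% did. Of the 36 windows of the 27 members called lower that had one, 86.1% held a match. The share was 81.5% over the 54 windows of the tested members. In the windows shown Bnip3 had 5 matches, Aldoc 3 and Pgk1 2. Among windows not shown, Gpi1 had 0, Ldhb 1, a further window of Aldoc 1, Ero1l 3, and Hk1 0 or 5 by window. These shares describe letters and no binding was measured.

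The widest differences of the list were at Ndrg1 and Bnip3, followed by the enzymes Ldhb (-1.45) and Aldoc (-1.36), given below, and then Ddit4. Ndrg1, a stress-induced gene, was at 32.8, 21.6, 8.72 and 7.29 FPKM (-1.58, SE 0.08, adjusted p = 0.00267), and Bnip3, a mitophagy receptor, at 262, 206, 90.2 and 70.7 FPKM (-1.49, SE 0.10, adjusted p = 0.00422). Ddit4, an inhibitor of mTORC1, was at 174, 97.4, 51.2 and 49.2 FPKM (-1.32, SE 0.12, adjusted p = 0.00489). For Ndrg1, Bnip3 and Ddit4, both clones of line 6 lay below both clones of line 4. The WT and KO pairs were close for Ndrg1 (-1.60 and -1.57) and further apart for Bnip3 (-1.33 and -1.65) and Ddit4 (-1.54 and -1.09). The oxidative folding enzyme Ero1l (-1.02), the prolyl hydroxylase Egln1 (-0.95), which marks Hif1a for degradation, Egln3 (-0.54), the collagen prolyl hydroxylase P4ha1 (-0.92) and the growth factor Vegfa (-0.55) were called lower as well.

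Enzymes of most steps of glycolysis were lower. The glucose transporters Slc2a3, at 610.4, 444, 336 and 278 FPKM (-0.73, SE 0.08, adjusted p = 0.00653), and Slc2a1 (-0.45) were lower. Hk1, the hexokinase of the first step, was at 31, 22.1, 10.6 and 9.31 FPKM (-1.27, SE 0.08, adjusted p = 0.00398), Gpi1 at 598, 398, 287 and 237 FPKM (-0.86, SE 0.07, adjusted p = 0.0047), and the phosphofructokinases Pfkp (-0.58) and Pfkl (-0.57) were called. The aldolases Aldoc, at 39.8, 29.7, 14.9 and 10.3 FPKM (-1.36, SE 0.11, adjusted p = 0.0047), and Aldoa (-0.82) were lower, as were Tpi1 (-0.57), the phosphoglycerate kinase Pgk1, at 1749, 1209, 878 and 704 FPKM (-0.84, SE 0.08, adjusted p = 0.00583), and the enolase Eno1, at 416, 281, 222 and 177 FPKM (-0.74, SE 0.07, adjusted p = 0.00597). Another enolase gene, Eno3, was higher (0.39, SE 0.08, adjusted p = 0.0188). Lactate dehydrogenase chains differed in size, Ldhb at 282, 195, 98.4 and 69.3 FPKM (-1.45, SE 0.09, adjusted p = 0.00422) and Ldha by -0.39. Gapdh (-0.21), Hk2 (-0.20), Pkm2 (-0.28) and Pdk1 (-0.18) were not called. The genes of the factors themselves were higher in line 6: Hif1a was at 39.4, 29.3, 47.8 and 40.8 FPKM (0.41, SE 0.08, adjusted p = 0.0174) and Epas1, which encodes Hif2a, at 5.71, 3.1, 8.25 and 9.22 FPKM (0.93, SE 0.14, adjusted p = 0.0109). With each library left out in turn, between 22 and 28 members were called lower, and on the deposited scale 21 were called lower and 1 higher.

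**Figure D3:**
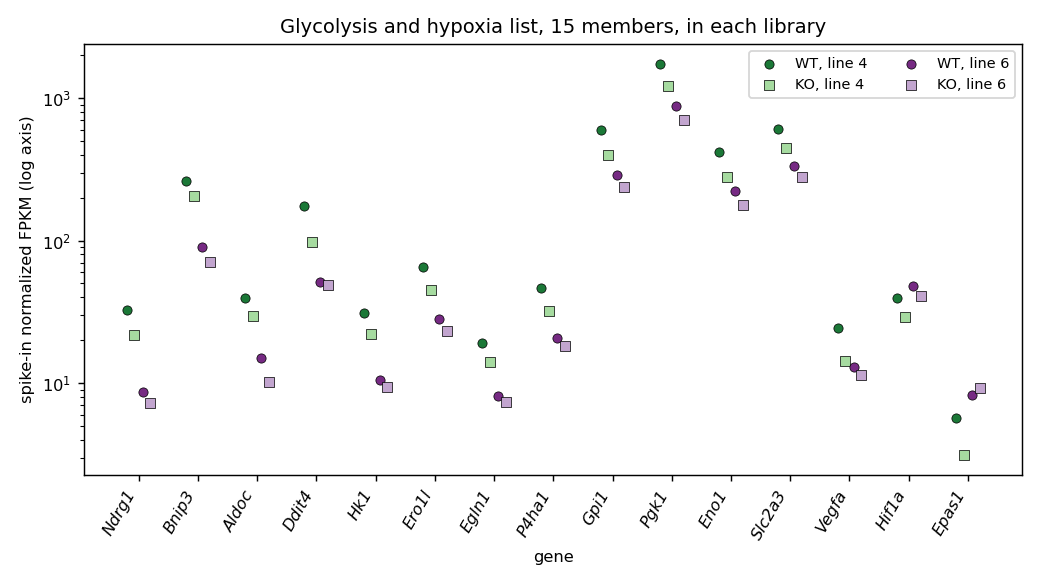
Spike-in normalized FPKM, on a log axis, of 15 members of the glycolysis and hypoxia list in each of the 4 libraries (circles WT, squares KO, green line 4, purple line 6). From Ndrg1 to Vegfa both line 6 clones lie below both line 4 clones, and for Hif1a and Epas1 above them.

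Genes of the respiratory chain were mostly not called. Of the oxidative phosphorylation list, 5 of 57 tested members were called higher in line 6 and 2 lower, with a median of -0.02. Of the iron handling list, 5 of 15 tested members were called higher in line 6 and 3 lower: beside Hfe, the transferrin receptor gene Tfrc (-0.31) and the ferritin light chain Ftl1 (-0.38) were lower, and the metal importer Slc39a14 (0.57) was among the higher ones. In the iron list, higher calls came to 0 on the deposited scale, 3 without line 4 WT or line 6 WT and 2 without line 6 KO, and lower calls came to 1 on the deposited scale and 1 without line 4 WT, line 4 KO or line 6 WT. In the oxidative phosphorylation list, higher calls came to 0 on the deposited scale, 1 without line 4 WT and 2 without line 4 KO or line 6 WT, and lower calls came to 1 on the deposited scale and 1 without line 4 WT or line 6 KO.

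Hfe lies among replication-dependent histone genes of the Hist1 cluster on chromosome 13, in the gene order of RefSeq on GRCm38.p6, and its neighbours were lower in line 6 too. From Hist1h3g to Hist1h2ab the files hold 23 neighbouring entries, Hfe and the testis H1 gene Hist1h1t among them. Of these 22 were called lower, and the exception was Hist1h4d (-0.19, SE 0.09, adjusted p = 0.161); the median over the 23 was -1.0. This stretch was delimited after its values were seen. Hist1h2be was at 322, 240.4, 65.1 and 41 FPKM (-2.37, SE 0.14, adjusted p = 0.00391), Hist1h2ac at 79.9, 59.5, 15.8 and 11.2 FPKM (-2.25, SE 0.11, adjusted p = 0.00267), Hist1h1t at 95.5, 68.4, 16.5 and 21 FPKM (-2.02, SE 0.13, adjusted p = 0.00412), and Hist1h3e at 647, 472, 206 and 153 FPKM (-1.59, SE 0.10, adjusted p = 0.00398). In each, line 6 was below line 4 without overlap and in both genotypes. Among the called genes of the stretch the differences ran from -3.05 for Hfe to -0.36 for Hist1h2ab. Just outside it, Hist1h2af (0.09) and Hist1h3b (-0.01) were not called and Hist1h3a was higher (0.69, SE 0.07, adjusted p = 0.00618). The 9 histone entries on either side, these 3 included, held 2 calls of lower and 1 of higher and had a median of 0.09. The calls of lower were Hist1h2aa (-0.51) and Hist1h2ba (-0.36), as low as some called genes of the stretch.

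Over the whole list of replication-dependent histones, 2 of 63 tested members were called higher in line 6 and 31 lower. Of the 50 in Hist1, 29 were called lower and 1 higher, and of the 13 in Hist2, Hist3 and Hist4, 2 were called lower and 1 higher, with medians of -0.37 and -0.01. In the histone list, higher calls came to 1 on the deposited scale and 1 without line 4 WT or line 4 KO, and lower calls came to 20 on the deposited scale and 18 without line 4 KO. Histone genes are near-identical copies, and reads that fit several of them may have been assigned to any, so the values of single copies are uncertain. These RNAs lack a poly(A) tail and were kept because the library was made from total RNA.

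**Figure D4:**
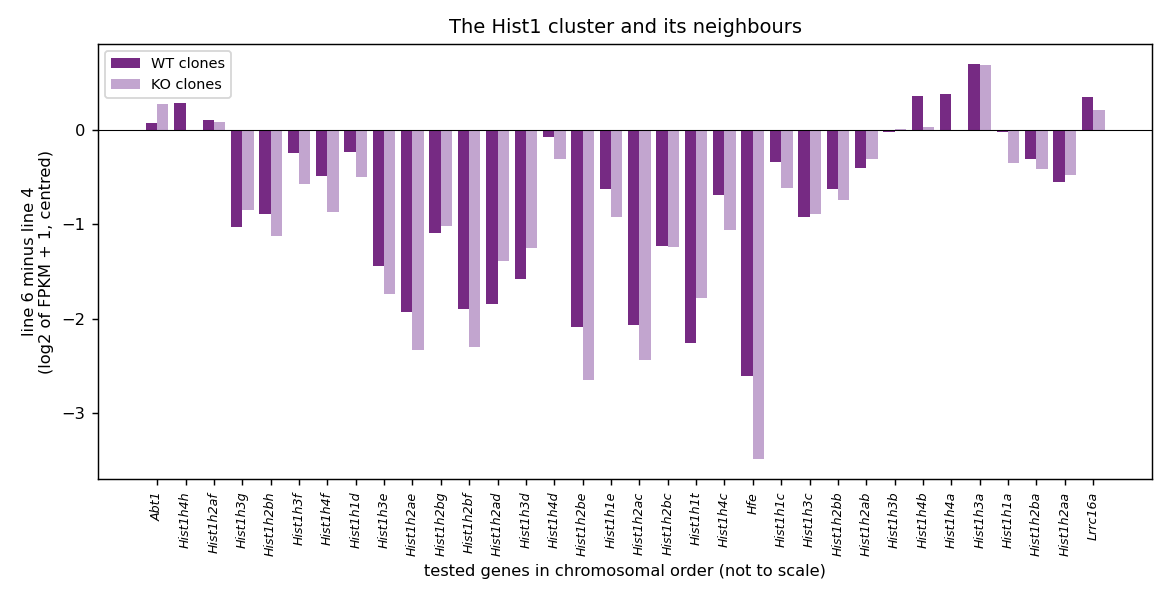
Line 6 minus line 4 in the WT clones (dark bars) and KO clones (light bars) for the tested genes around the Hist1 cluster, log2 of FPKM + 1 after centring, in gene order and not to scale. The bars are below 0 in both genotypes from Hist1h3g to Hist1h2ab, deepest at Hfe. On either side they run from 0.70 at Hist1h3a to -0.55 at Hist1h2aa, both in the WT clones, and so reach as low as the shallower bars of the stretch.

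Apart from the 2 stretches of 11 neighbouring called genes on either side of Hist1h4d, the longest runs of neighbouring tested genes called in the same direction held 5 genes. One on chromosome 5, from Rasal1 to Oas1a, was lower in line 6 and held 3 Oas genes, sensors of double-stranded RNA that interferon induces. Oas1a was at 2.66, 1.77, 0.454 and 0.487 FPKM (-1.07, SE 0.13, adjusted p = 0.0073). In the list of interferon-stimulated genes 1 of 15 tested members was called higher in line 6 and 7 lower, with a median of -0.39. Bst2, or tetherin, was at 96.2, 70.2, 48.2 and 38 FPKM (-0.88, SE 0.08, adjusted p = 0.00536), Isg15 at 2.32, 1.39, 0.222 and 0.861 FPKM (-0.86, SE 0.21, adjusted p = 0.0323), and the signal transducer Stat2 (-0.83, SE 0.09, adjusted p = 0.00664) were lower. The RNA sensor Ddx58 was higher (0.53), and was not called on the deposited scale. In the list of MHC class I and antigen presentation 2 of 21 tested members were called higher in line 6 and 4 lower. In the MHC list, higher calls came to 1 on the deposited scale and 1 without line 4 WT or line 6 WT, and lower calls came to 1 on the deposited scale, 2 without line 4 WT or line 6 KO, 0 without line 4 KO and 1 without line 6 WT. Blood and immune markers summed to 17.9, 13.4, 11.4 and 10.4 FPKM over 17 genes, and Lyz2 was lower in line 6, at 2.36, 2.87, 0.125 and 0.814 FPKM (-1.29, SE 0.13, adjusted p = 0.0061).

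Another run of 5, on chromosome 4 from Gm13247 to Gm13139, was higher in line 6 and held Rex2, at 13.7, 7.79, 18.8 and 20.2 FPKM (0.89, SE 0.13, adjusted p = 0.0107), one of a group of KRAB zinc finger genes. Of the KRAB zinc finger list, 5 of 17 tested members were called higher in line 6 and 0 lower. These genes are a repetitive family and their values are uncertain too. By chromosome the median difference lay between -0.04 on chromosome 1 and 0.14 on chromosome 14, with chromosome Y left out. On chromosome 14, 22.3% of 408 tested genes were called higher and 7.35% lower, against 16.0% and 13.5% over all genes. Its median was 0.23 in the WT pair and 0.03 in the KO pair. On chromosome X 22.5% of 377 tested genes were called higher and 6.90% lower, and all 3 tested genes of chromosome Y were called lower.

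These 3 genes were Ddx3y, at 24.2, 15.8, 10.5 and 12 FPKM (-0.71, SE 0.12, adjusted p = 0.0135), Eif2s3y, at 62.4, 48.2, 35.2 and 31 FPKM (-0.67, SE 0.08, adjusted p = 0.00684), and Uty, at 12.4, 8.09, 6.6 and 6.83 FPKM (-0.48, SE 0.10, adjusted p = 0.0244). None was at 0 in any clone, and Xist was at 0.286, 0.21, 0.31 and 0.344 FPKM. Of their partners on chromosome X, Ddx3x (0.48) and Kdm6a (0.40) were higher in line 6, and Eif2s3x (0.03, SE 0.07, adjusted p = 0.801) was not called. On the deposited scale or without line 4 KO neither was called.

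Imprinted genes, of which 1 parental allele is silent, differed at single genes. H19, a long RNA of the maternal allele, was at 26.9, 20.6, 13.8 and 6.39 FPKM (-1.19, SE 0.22, adjusted p = 0.0163), and Mir675, which lies within H19, at 57.1, 36.2, 25.4 and 11.9 FPKM (-1.29, SE 0.17, adjusted p = 0.00832). The neighbouring growth factor gene Igf2 was at 1.37, 1.41, 1.4 and 1.47 FPKM, with opposite signs in the pairs, and Cdkn1c was at 3.95, 2.96, 15.1 and 3.99 FPKM and not called (1.06, SE 0.37, adjusted p = 0.0813). In the Dlk1-Meg3 cluster, Rian was at 3.68, 2.89, 9.83 and 4.84 FPKM (0.94 (SE 0.22, adjusted p = 0.0303), not called without line 4 WT), while Meg3, at 0.639, 0.34, 0.558 and 0.359 FPKM, and Dlk1, at 0.359, 0.201, 0.328 and 0.426 FPKM, were under the filter. Of the other imprinted genes, 7 of 32 tested members were called higher in line 6 and 6 lower, Sgce (-0.90) and Copg2 (-0.66) among the lower ones and Ndn (0.60), Snrpn (0.55) and Snurf (0.56), which lie together, among the higher ones. In the list of other imprinted genes, higher calls came to 2 on the deposited scale, 1 without line 4 WT and 4 without line 4 KO or line 6 KO, and lower calls came to 3 on the deposited scale and 10 without line 6 KO. Of genes known to vary between mouse strains, 1 of 12 tested members was called higher in line 6 and 3 lower: Mid1 was at 0.589, 0.351, 3.26 and 2.03 FPKM (1.33, SE 0.18, adjusted p = 0.00837), and Nnt, which carries a deletion in one common strain, was at 15.4, 10.4, 12.5 and 9.0 FPKM and was not called (-0.20). In the strain list, higher calls came to 2 without line 4 KO, and lower calls came to 1 without line 6 KO.

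Chromatin factors were called in both directions, against 16.0% higher and 13.5% lower over all tested genes. Of the DNA methylation list, 6 of 25 tested members were called higher in line 6 and 5 lower, and beside the de novo enzymes the deaminase Apobec1 (-0.61) was lower and the corepressor Trim28 higher (0.50), while Dnmt1 (-0.18) and Uhrf1 (-0.09) were not called. Of the Polycomb and trithorax list, 5 of 33 tested members were called higher in line 6 and 3 lower. Ezh1 (-0.87), Pcgf5 (-0.98) and Pcgf1 (-0.68) were lower, Kdm2b (0.88) and Jarid2 (0.64) higher, and Ezh2 (-0.26) and Suz12 (-0.21) were not called. In the DNA methylation list, higher calls came to 2 on the deposited scale and 3 without line 4 KO, and lower calls came to 3 on the deposited scale, 3 without line 4 WT, line 4 KO or line 6 WT and 2 without line 6 KO. In the Polycomb list, higher calls came to 2 on the deposited scale, 3 without line 4 WT or line 6 WT and 2 without line 6 KO. Of the SAGA and ATAC subunits, the complexes in which Gcn5 works, 9 of 28 tested members were called higher in line 6 and 0 lower, with a median of 0.03. These calls were small, from 0.32 for Zzz3 to 0.51 for Tada1, with Kat2b, the paralog of Kat2a, at 19.5, 12.8, 20.5 and 19 FPKM (0.34, SE 0.08, adjusted p = 0.0312). In the SAGA and ATAC list, higher calls came to 0 on the deposited scale, 4 without line 4 WT or line 6 WT and 3 without line 6 KO.

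Lists of growth and stress differed in their share of calls, set beside 16.0% higher and 13.5% lower over all tested genes. Of the cytoplasmic ribosomal protein genes, 0 of 78 tested members were called higher in line 6 and 1 lower, with a median of -0.11 and 67 of 78 differences below 0. Of the cell cycle list, 7 of 47 tested members were called higher in line 6 and 9 lower: the G1 cyclins Ccnd1, Ccnd2 (0.68) and Ccne1 (0.48) were higher, Ccnd3 was lower as given above, and Ccne2 (0.11) was not called. The mitotic genes Bub1 (-0.51), Aurkb (-0.43) and Ccnb2 (-0.37) were lower, while Ccnb1 (-0.11), Cdk1 (-0.03), Bub1b (-0.16) and Cdc20 (0.13) were not called. In the cell cycle list, higher calls came to 3 on the deposited scale, and lower calls came to 1 on the deposited scale, 4 without line 4 WT and 5 without line 4 KO. Of the p53 list, 6 of 28 tested members were called higher in line 6 and 1 lower; Trp53 itself was higher (0.43), with Perp (0.91), and Cdkn1a was not called (-0.56). In the p53 list, higher calls came to 1 on the deposited scale, and lower calls came to 0 on the deposited scale, 0 without line 4 WT or line 6 WT and 3 without line 4 KO. Of the Atf4 list, 7 of 36 tested members were called higher in line 6 and 4 lower, with Slc7a3, an arginine transporter, at 65.6, 42.1, 100.3 and 83.3 FPKM (0.83, SE 0.07, adjusted p = 0.0047) and Asns (-0.69) and Pycr1 (-0.75) lower. In the Atf4 list, higher calls came to 1 on the deposited scale, 3 without line 4 KO and 4 without line 6 KO. Of the cholesterol synthesis list, 3 of 31 tested members were called higher in line 6 and 2 lower. In the cholesterol list, higher calls came to 1 on the deposited scale and 7 without line 4 KO, and lower calls came to 0 on the deposited scale, 6 without line 4 WT, 0 without line 4 KO and 1 without line 6 WT or line 6 KO. Of the heat shock list, 6 of 24 tested members were called higher in line 6 and 1 lower, and of the glutathione and Nrf2 list, 8 of 23 tested members were called higher in line 6 and 3 lower. Nqo1, a target of Nrf2, was at 13.5, 9.12, 17 and 18.4 FPKM (0.67, SE 0.10, adjusted p = 0.0107), and Gpx4, which detoxifies lipid peroxides, at 816, 645, 418 and 345 FPKM (-0.89, SE 0.09, adjusted p = 0.00618). In the heat shock list, higher calls came to 1 on the deposited scale, 3 without line 4 WT or line 6 WT and 2 without line 4 KO. In the glutathione and Nrf2 list, higher calls came to 1 on the deposited scale, 5 without line 4 WT and 4 without line 4 KO.

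MicroRNA entries in a total RNA library mostly count fragments of precursors and host transcripts, not mature microRNAs, and low ones rest on few reads. The clusters below are given with their mature sequences because members that share a seed can act on the same targets. Seeds, bases 2 to 8, are in capitals, and the sequences are from RefSeq on GRCm38.p6. The first 7 belong to miR-17-92 and its paralogs and fall into 4 seed groups, and the next 5 belong to the clusters of miR-290 and miR-302, 4 of them with the seed AAGUGCU.
miR-17-5p: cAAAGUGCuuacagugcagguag
miR-20a-5p: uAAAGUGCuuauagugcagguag
miR-20b-5p: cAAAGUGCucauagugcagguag
miR-18a-5p: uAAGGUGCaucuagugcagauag
miR-19a-3p: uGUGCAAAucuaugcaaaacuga
miR-19b-3p: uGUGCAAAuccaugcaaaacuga
miR-92a-3p: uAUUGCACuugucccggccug
miR-291a-3p: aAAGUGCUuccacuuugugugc
miR-294-3p: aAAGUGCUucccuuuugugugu
miR-295-3p: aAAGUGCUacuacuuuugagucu
miR-302b-3p: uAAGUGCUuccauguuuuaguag
miR-291b-3p: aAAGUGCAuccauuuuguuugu

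Of the miR-17-92 list, 5 of 12 tested members were called higher in line 6 and 0 lower. The host transcript Mir17hg was at 8.89, 6.07, 13.4 and 11 FPKM (0.69, SE 0.08, adjusted p = 0.0073), and the entries Mir92-1 (0.84, SE 0.08, adjusted p = 0.00601), Mir18 (0.63, SE 0.17, adjusted p = 0.0432) and Mir19b-1 (0.48, SE 0.11, adjusted p = 0.0273) were higher in line 6. Mir20b, of a paralogous cluster with the same seed as miR-17, was at 0.375, 0.00949, 1.5 and 2.17 FPKM (1.3, SE 0.17, adjusted p = 0.00827), where the lowest value is that of an entry without signal. The entries Mir17 (0.42), Mir19a (0.34) and Mir20a (0.11) were not called. Nor were the other tested paralogs, Mir363 (-0.12), Mir106b (-0.13), Mir25 (-0.09) and Mir93 (-0.08). Mir106a, under the filter and not tested, was lower in both clones of line 6, at 2.06, 0.696, 0.011 and 0.672 FPKM. Of the miR-290 cluster, the most abundant of stem cells, 0 of 7 tested members were called higher in line 6 and 2 lower, with Mir291a at 52.4, 35.2, 31.5 and 29.5 FPKM (-0.44, SE 0.08, adjusted p = 0.0151) and Mir291b at 46.9, 29.4, 27.1 and 26.8 FPKM (-0.41, SE 0.10, adjusted p = 0.0331). In the miR-290 list, lower calls came to 0 on the deposited scale, 1 without line 4 WT or line 6 WT and 4 without line 4 KO. In the miR-17-92 list, higher calls came to 3 on the deposited scale and 3 without line 6 WT. The entries of the miR-302 cluster lie in an intron of Larp7, which was called higher (0.40, SE 0.09, adjusted p = 0.0257), and none of the 5 microRNA entries was called, although all 6 entries of that list, Larp7 included, were called higher without line 6 KO. Beside Mir20b and Mir675, the widest called microRNA differences were at Mir147, 11.8, 15.3, 3.51 and 4.4 FPKM (-1.51, SE 0.12, adjusted p = 0.00462), Mir708, 0.0109, 0.918, 2.91 and 2.39 FPKM (1.43, SE 0.33, adjusted p = 0.0296), Mir370, 0.429, 0.581, 2.51 and 2.75 FPKM (1.31, SE 0.15, adjusted p = 0.00667), and Mir328, 4.16, 2.99, 1.23 and 0.455 FPKM (-1.29, SE 0.17, adjusted p = 0.00813).

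Some differences between the lines rested on 1 library. The genes Lrr1, Rpl36al, Mgat2, 9330151L19Rik, Pole2, Klhdc1, Klhdc2 and Nemf are neighbours on chromosome 12 in the RefSeq order on GRCm38.p6, and all 8 were highest in the WT clone of line 6. Klhdc1, a kelch-domain gene, was at 1.57, 0.732, 4857 and 0.186 FPKM, Klhdc2, which recruits targets to a ubiquitin ligase, at 37.5, 27, 4956 and 29.4 FPKM, and Pole2, a subunit of DNA polymerase epsilon, at 43.6, 26.3, 1967 and 24.4 FPKM. Lrr1 was at 6.69, 4.54, 1956 and 4.67 FPKM, Nemf, a ribosome quality control factor, at 41, 25.9, 1564 and 27.4 FPKM, and the glycosyltransferase gene Mgat2 at 8.81, 6.48, 291 and 11.1 FPKM. Among these 6 genes, Mgat2 was the only one for which the KO clone of line 6 was above both clones of line 4. Rpl36al was raised less, at 387, 312, 1093 and 378 FPKM.

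The nearest measured genes on either side, Rps29 (2429, 1496, 1868 and 1534 FPKM) and Arf6 (40.0, 28.9, 39 and 33.5 FPKM), were not raised in that library. Summed over the 8 genes the values were 527, 403, 17254 and 475 FPKM, which was 2.54% of all FPKM in the WT library of line 6 and between 0.0695% and 0.0883% in the others. The line difference of none of the 8 was called, with adjusted p between 0.0762 and 0.166. The gene 1110034A24Rik behaved alike, at 9.03, 6.43, 204 and 7.75 FPKM. It did not appear under this name in the gene order from Lrr1 to Nemf, and its own position was not looked at. It may therefore belong to the neighbourhood, in which case the 8 genes and their sum leave out a member. The imprinted gene Grb10 was also highest in that library, on a smaller scale, at 10.4, 8.56, 61.1 and 9.62 FPKM.

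Over all tested genes, 9 were at least 2 log2 units above the other 3 libraries in the WT clone of line 6, 1 in the WT clone of line 4, 1 in the KO clone of line 4 and none in the KO clone of line 6. The one in the WT clone of line 4 was Serpinb6e, a serine protease inhibitor gene, at 9.1, 0.0685, 0.146 and 0.293 FPKM, and the one in the KO clone of line 4 was Hist2h2be, at 0.422, 7.68, 0.409 and 0.335 FPKM. No tested gene was as far below the other 3 in any library.

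**Figure D5:**
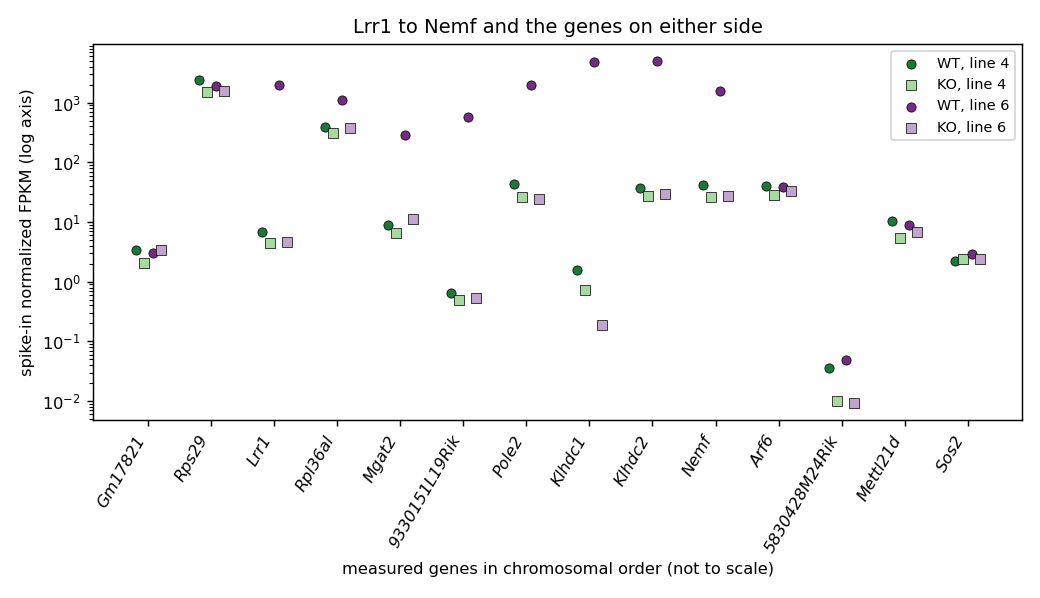
Spike-in normalized FPKM, on a log axis, of the neighbouring genes from Lrr1 to Nemf and of measured genes on either side, in each library (circles WT, squares KO, green line 4, purple line 6), in gene order and not to scale. The WT clone of line 6 lies above the other 3 from Lrr1 to Nemf, up to 4956 FPKM at Klhdc2, and among them at Rps29 and Arf6.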

How the data were processed

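RNA was measured by sequencing of total RNA, depleted of ribosomal RNA, in 1 library from each of 4 clones. The unit is FPKM normalized to spike-ins by the authors, per the file headers; the way this was done is not given in these sources. The submitters' processing notes name Bowtie 0.12.8, TopHat2 2.0.9, affy, HTSeq, edgeR and the build mm9, with no role for any. Of 23376 entries per file, 92 were spike-ins and 25 could not be joined by name, which left 23259 genes. Names, gene order, promoters and microRNAs are from RefSeq on GRCm38.p6, which matched 23013 genes by symbol or synonym.

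Genes whose mean reached 1 FPKM were kept, and values were moved to log2(FPKM + 1), a scale on which changes of low genes come out too small. A gene low in one line can pass this filter only through the line where it is high. Sall2, Cubn, Gata4, Mid1, Mir20b and Zscan4c, among others, passed through line 6, and Oas1a and Lyz2 through line 4. For such genes, and for list counts that hold them, the filter favours the direction seen. Each library was then centred on its median. Genotype and line were fitted with limma 3.58.1 in R 4.3.3 (eBayes with a trend, two-sided), adjusted by Benjamini-Hochberg over all 11932 genes. The fit was tested on simulated data. The replicate number of the labels is the founder line and was the term tested, so the line and any batch shared by a replicate cannot be told apart. With 1 residual degree of freedom, the test borrows its spread from genes of like level.

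Gene lists and the rules for named genes were chosen with earlier results of these data known, so no list count is independent evidence. The rule named up to 15 genes per direction with the widest called difference, the 5 members of each list with the lowest p, a set of stem cell, lineage and imprinted genes, the 8 genes with the widest distance between pairs, and microRNA entries. Other list members, and the genes on either side of the 2 neighbourhoods, were named after their values were seen, and some genes are not reported here. A list is described by its count of calls and its median, and no list was tested. Alternatives covered the scale, the pseudocount, the filter, the spread model, the genotype term, short RNA entries and each library left out.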

Additional observations from a re-analysis of the deposited data

Results flagged for a closer look

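For 22 of the genes named above, the WT clones and the KO clones differed between the lines in opposite directions. With 1 clone of each genotype per line the difference between the pairs was not tested. The widest distances between the 2 differences, on the log2 scale, were in the chromosome 12 neighbourhood raised in the WT library of line 6: 11.75 for Klhdc1, 8.71 for 9330151L19Rik, 8.28 for Lrr1, 7.21 for Klhdc2, 5.89 for Pole2 and 5.46 for Nemf. Serpinb6e, raised in the WT clone of line 4, had a distance of 3.09 (WT pair -2.94, KO pair 0.16). For Hist2h2be, raised in the KO clone of line 4, it was 3.01 (WT pair 0.19, KO pair -2.82). In each of these genes 1 library stood apart from the other 3.

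Among genes of the other lists, Spry4 was -0.11 in the WT pair and 0.87 in the KO pair, a distance of 0.98, Otx2 was 0.60 in the WT pair and -0.13 in the KO pair, a distance of 0.74, and Tbx3 was -0.23 and 0.27, a distance of 0.51. Dmrt1 was -0.80 and 0.0029, a distance of 0.80. The distance was 0.24 for Ccnb1, 0.0588 for Eif2s3x, 0.30 for Cdh1, 0.32 for Eomes, 0.35 for Etv5, 0.0266 for Hist1h3b, 0.31 for Igf2, 0.15 for Kat2a, 0.22 for Lifr and 0.34 for Mir20a. None of these genes was called between the lines, and with opposite signs in the pairs none could be in the main fit.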

How the results depend on the processing

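No paired analysis was possible because the replicate number of the labels is the founder line under comparison and cannot also serve as a block. The fit compares the lines within each genotype, and without the genotype term 1957 genes were called higher and 1645 lower. On the deposited scale 438 were called higher and 651 lower, with an infinite prior degrees of freedom, and the median gene lay at -0.14 in the WT pair and 0.12 in the KO pair. That scale kept 1030 of the 3531 calls. With each library left out, between 1143 and 1525 genes were called higher and between 947 and 1315 lower. Those fits lack the genotype term, and the lone clone of a line is assumed to vary like the others. The other 7 fits called between 1526 and 2276 higher and between 1372 and 2343 lower. No gene called in the main fit was called in the opposite direction in another fit.

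With a pseudocount of 0.1, 136 genes were at least 2-fold higher and 124 at least 2-fold lower in both pairs, and 7 were 2-fold apart in opposite directions. With a filter of 5 FPKM 24 were at least 2-fold higher. The pseudocount of 1 shrinks low genes by construction. Of the 221 named genes called, 67 were not called on the deposited scale and between 32 and 51 with a library left out. The named genes that turned sign were all uncalled. Tbx3 was at -0.022 on the deposited scale and -0.012 without a filter, Eif2s3x at -0.015 on the deposited scale, -0.036 with quantile normalization and -0.0055 without a filter, and Hist1h3b at 0.0014 without short RNA and repeated entries. With a library left out, 19 changed sign, with these lowest and highest differences: Axin2 (-0.011 to 0.32), Cdh1 (-0.13 to 0.042), Cdk1 (-0.062 to 0.0012), Col1a1 (-0.63 to 0.041), Eif2s3x (-0.027 to 0.079), Eomes (-0.22 to 0.023), Etv5 (-0.022 to 0.27), Hist1h3b (-0.019 to 0.0044), Hist2h2be (-2.85 to 0.22), Igf2 (-0.18 to 0.31), Kat2a (-0.72 to 0.64), Klhdc1 (-0.72 to 11.14), Lifr (-0.14 to 0.045), Lrr1 (-0.089 to 8.2), Nemf (-0.13 to 5.51), Otx2 (-0.12 to 0.59), Pole2 (-0.35 to 5.79), Tbx3 (-0.16 to 0.20), Zfp42 (-0.11 to 0.015). Apart from Kat2a, which is lower in KO clones by design, and Hist2h2be, Klhdc1, Lrr1, Nemf and Pole2, where 1 library stood apart, the cause was not tested. For ribosomal protein genes the calls of lower ranged from 0 to 38 over the fits, with a median below 0 in all of them. The depth behind the values is unknown, so low genes carry no counting interval.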

Other observations

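Runs of 5 neighbouring called genes were also seen at loci of other functions. On chromosome 10 the run from Nap1l1 to Atxn7l3b was higher in line 6, with a median difference of 0.37. On chromosome 2 the run from Zswim3 to Pltp, which holds the lysosomal gene Ctsa, was lower, with a median of -0.39. On chromosome 11 the run from Gfpt2 to 3010026O09Rik was lower, with a median of -0.34. Gene order is that of RefSeq on GRCm38.p6, and neither these runs nor the longer ones were tested as regions.

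Of the 220 tested genes at least 2-fold apart on average, 204 were called, 103 of them higher in line 6 and 101 lower. The 16 others differed between the WT pair and the KO pair by more than the test allowed. Of all tested entries, 411 were short RNAs, and 33 entries shared all 4 values with another entry, so some calls count a locus more than once.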
